A study of Mus musculus with 30 samples.

Results

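The comparison described here sets mice that carried a mutant CREST and explored for 10 min against mice that received vehicle and explored for 3 min. Neither condition is one that left long-term memory in the behavioural tests of the study. It comprised 12 of the 30 libraries of the series, 6 from Y397F-T10 and 6 from VEH-T3, assigned by their condition labels. The tissue was dorsal CA1 (dCA1), the output field of the dorsal hippocampus, of male C57BL/6J mice, 2 to 4 months of age, and each library came from 1 mouse. Y397F-T10 mice were infused in dCA1 with a plasmid for HA-tagged mouse CREST in which tyrosine 397 is replaced by phenylalanine, a residue that cannot be phosphorylated. A shortened CaMK2 promoter drove the plasmid, and the carrier was in vivo-jetPEI. VEH-T3 mice received the carrier without a plasmid. Both groups were trained in the object location task, in which mice explore 2 identical objects, and dCA1 was collected 1 h later. The other 18 mice were 6 vehicle mice from the home cage (VEH-HC), 6 vehicle mice trained for 10 min (VEH-T10) and 6 mice with the Y397D plasmid trained for 3 min (Y397D-T3). Because Y397F-T10 and VEH-T3 differ in both plasmid and training period, these factors cannot be told apart in their difference. No condition of the series carried wild-type CREST, so the mutation and the presence of a plasmid cannot be told apart either.

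CREST, the product of Ss18l1, is a subunit of the neuronal BAF chromatin remodelling complex. Its amino-terminal region contacts the ATPase BRG1, and its carboxy-terminal end recruits CBP, a histone acetyltransferase encoded by Crebbp that serves as a coactivator of CREB. Exploration of objects evokes activity in CA1 neurons, and that activity switches on immediate-early genes such as Fos, Egr1 and Npas4 and then effector genes such as Arc and Homer1. Transcription in the hours after training is needed for an experience to be kept as long-term memory.

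The site that was altered lies at the very end of the CREST coding sequence. In the GENCODE annotation of GRCm38, the build also called mm10, the last of 11 coding exons of Ss18l1 holds the final 8 of 402 codons and is followed directly by the stop codon, at chr2:180067332-180067358 on the + strand. The 27 bases of the reference genome are shown because codon 397, in capitals and encoding tyrosine, is the codon changed in the plasmid.
Ss18l1: ggccagTATggaaattaccagcaataa

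Expression was given as FPKM, fragments counted on a transcript, scaled for its length and for library size. Of 24883 rows in the table, 13184 had a mean of at least 1 FPKM over the 30 libraries and were tested as log2(FPKM + 1) with limma. All differences below are Y397F-T10 minus VEH-T3 on that scale unless another pair is named. Low FPKM values come in steps of 1 fragment, and the size of those steps gave the relative depth of the libraries, 0.812 to 1.13 in Y397F-T10 and 0.842 to 1.16 in VEH-T3. Absolute depth is unknown. Mouse 1 of Y397F-T10 and mouse 1 of VEH-T3 stood apart from the other 10 libraries of the comparison, at 37.6 and 41.5 on a first principal component of all 30 libraries that held 31.5% of the variance, where the other 10 lay between -26.4 and 13. Where leaving out either library turned the direction of a gene list described below or moved its median much, the value without it is given.

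No gene passed the test between Y397F-T10 and VEH-T3. With limma and Benjamini-Hochberg adjustment, 0 rows were higher and 0 lower at an adjusted p under 0.05, a background of 0% in each direction, and the smallest adjusted p was 1. At an unadjusted p under 0.05, 115 rows were higher (0.872%) and 245 lower (1.86%), 2.73% of the tested rows in all. Over all tested rows the median difference was -0.004, and 48.1% lay above 0. A Cyber-T-style test, modelled on the method of the study and not adjusted across genes, placed 4 rows higher (0.0303%) and 34 lower (0.258%). Without VEH-T3 mouse 1, the rows at an unadjusted p under 0.05 numbered 815 (6.18%), and 0 rows passed the adjusted threshold.

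The 6 mice per condition set how small a difference could be seen. The 95% confidence interval of the difference reached a median of 0.161 to either side on the log2 scale, and this distance ran from 0.0903 at the 5th percentile to 0.546 at the 95th percentile of rows. As folds of FPKM + 1, the whole interval lay within 1.25-fold in either direction for 10023 rows (76%). It lay within 1.5-fold for 12216 rows (92.7%) and within 2-fold for 12874 rows (97.6%). The differences themselves had a median size of 0.0485, and 0.211 and 0.416 at the 95th and 99th percentiles. For most tested rows a 2-fold difference of FPKM + 1 was therefore outside the interval. In rows of low FPKM, a 2-fold difference of FPKM itself is smaller on this scale and may lie inside it.

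Among the 10 pairs of conditions, this one had the fewest rows at an unadjusted p under 0.05, as the plot of all pairs shows. The next was Y397F-T10 against VEH-T10, with 3.78% and 0 called rows. VEH-T10 against VEH-T3, the same difference in training period with vehicle in both, had 8.15% and 6 called rows (0.0455%), and Y397D-T3 against VEH-T3 had 7.87% and 1 called row (0.00758%). VEH-T10 and Y397F-T10 against Y397D-T3 had 8.97% and 9.18%, with 5 (0.0379%) and 8 (0.0607%) called rows. Against VEH-HC, Y397F-T10 had 149 called rows (1.13%) and VEH-T3 had 681 (5.17%), beside 108 (0.819%) in VEH-T10 and 932 (7.07%) in Y397D-T3. These pairs share libraries, and their counts were not tested against each other. The order depended on the processing, since this pair ranked second after removal of the trends with transcript length and GC content, without VEH-T3 mouse 1, without Y397F-T10 mouse 2 and in the Cyber-T-style test.

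**Figure D1:**
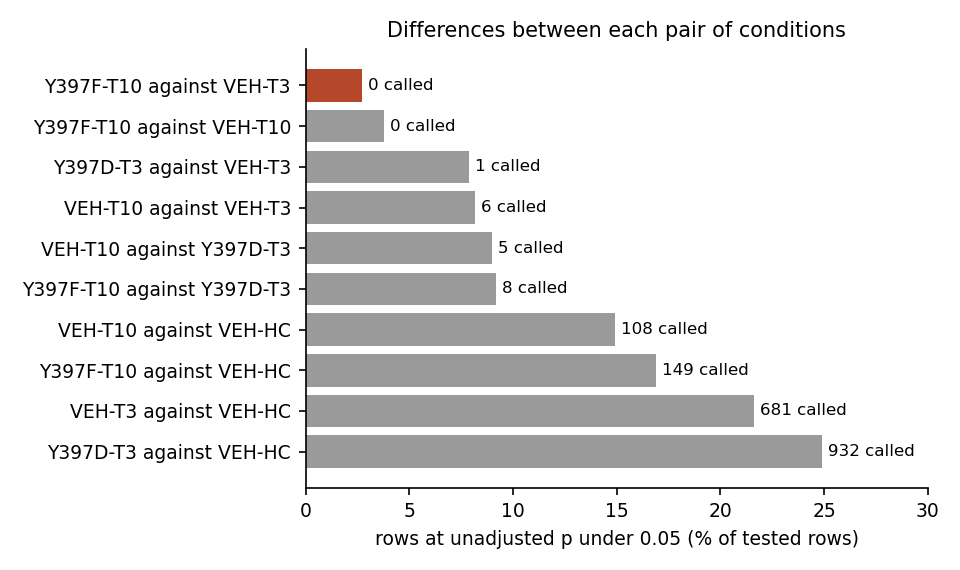
Share of the 13184 tested rows at an unadjusted p under 0.05 (horizontal axis, %) for each of the 10 pairs of conditions, with the number of rows at an adjusted p under 0.05 written beside each bar. Y397F-T10 against VEH-T3, coloured, was lowest at 2.73% with 0 called rows, and the 4 pairs with VEH-HC were highest, from 14.9% to 24.9%.

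Ss18l1 itself stood at much the same level in both conditions. Its FPKM ran from 11.4 to 14.0 with a median of 12.5 in Y397F-T10, and from 11.8 to 14.7 with a median of 12.9 in VEH-T3, and 5 of the 6 Y397F-T10 mice lay within the range of VEH-T3. The difference was -0.04 (SE 0.0574, 95% interval -0.15 to 0.08), and an exact two-sided permutation test of 6 against 6 mice gave p = 0.567, where the smallest p this design allows is 0.00216. The values of the row do not separate transcripts of the plasmid from those of the mouse's own gene. The study shows staining for the HA tag of the mutant in dCA1 some days after infusion. A level of Ss18l1 close to that of VEH-T3 therefore does not mean that the plasmid was silent. Crebbp ran from 6.53 to 7.55 FPKM with a median of 7.15 in Y397F-T10 and from 6.36 to 8.49 with a median of 7.76 in VEH-T3, a difference of -0.10 (SE 0.075, unadjusted p = 0.196). All 6 Y397F-T10 values of Crebbp were below the VEH-T3 median and inside the VEH-T3 range.

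The other subunits of the BAF complex and the partners of CBP were also close in level. Of 28 BAF subunits tested, 13 were higher and 15 lower, none at an unadjusted p under 0.05, with a median difference of -0.004 beside -0.004 over all tested rows. Without Y397F-T10 mouse 1, 17 of the 28 were higher with a median of 0.01. Smarca4, which encodes BRG1, had medians of 27.5 FPKM in Y397F-T10 and 26.9 in VEH-T3, with an interval of -0.03 to 0.13. Brd7, a bromodomain subunit, had medians of 16.8 and 17.9 FPKM and an interval of -0.18 to 0.02. Among 24 genes of CBP, CREB and their coactivators, 9 were higher and 15 lower, and Ncoa3, a nuclear receptor coactivator, had the smallest unadjusted p, 0.0126, at -0.18 (SE 0.0689). Its FPKM ran from 5.41 to 6.39 in Y397F-T10 and from 5.96 to 7.52 in VEH-T3, so the conditions overlapped.

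The lists of chromatin enzymes leaned slightly lower in Y397F-T10. Of 34 histone lysine methylases and demethylases, 28 were lower, where 48.1% of all tested rows were higher, with a median of -0.043, and after removal of the length and GC trends 24 were lower with a median of -0.027. Dot1l, which methylates histone H3 in transcribed genes, had a lowest, median and highest FPKM of 8.11, 9.01 and 9.52 in Y397F-T10 and of 8.46, 10.6 and 12.1 in VEH-T3, a difference of -0.20 (SE 0.0813, unadjusted p = 0.0185). Ezh1, a methylase of the Polycomb repressive complex, went the other way at 0.08 (SE 0.0371, unadjusted p = 0.0433). Of 25 histone deacetylases and corepressors, 9 were higher and 16 lower, and Tbl1xr1, a subunit of the NCoR corepressor complex, alone had an unadjusted p under 0.05. It was at -0.09 (limma, unadjusted p = 0.0354), with 9.77 to 10.7 FPKM in Y397F-T10 and 10.2 to 11.5 in VEH-T3.

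No immediate-early gene was shown to differ between 10 min with the mutant and 3 min with vehicle. Of 20 listed transcription factors of this class, 19 were tested, 5 were higher and 14 lower, the median difference was -0.042, and none had an unadjusted p under 0.05. Maff, the remaining one, was below the filter, with a median of 1.01 FPKM in Y397F-T10 and 0.909 in VEH-T3. The 19 differences ran from -0.23 for Ier2 to 0.14 for Fosb. Ier2 had 3.99 to 4.61 FPKM in 5 of the Y397F-T10 mice, below the 4.74 to 5.95 of VEH-T3, and 6.4 in mouse 2, above that range, and its unadjusted p was 0.0551. Without the 2 libraries of highest choroid plexus signal, 18 of the 19 were lower with a median of -0.11. Without VEH-T3 mouse 4 alone, 18 were lower with a median of -0.068. Against VEH-HC the median of the list was 0.099 in VEH-T3 and 0.026 in Y397F-T10, beside -0.035 and -0.041 over all tested rows. These medians were not compared by a test.

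Fos had a lowest, median and highest FPKM of 5.29, 6.18 and 8.09 in Y397F-T10 and of 5.32, 6.83 and 7.87 in VEH-T3, a difference of -0.06 with an interval of -0.35 to 0.22. Egr1, a zinc-finger factor of the same early wave, had 37.2, 50.9 and 67.6 FPKM in Y397F-T10 and 44.8, 58.5 and 64.2 in VEH-T3, at -0.14 with an interval of -0.39 to 0.12. Npas4, which is induced by calcium entry in neurons, had 0.941, 2.0 and 3.04 FPKM against 1.7, 2.48 and 3.34, at -0.22 with an interval of -0.57 to 0.14. The mice of the conditions overlapped widely for each of these genes. The orphan nuclear receptors Nr4a1, Nr4a2 and Nr4a3 differed by -0.09, -0.10 and -0.04, with unadjusted p of 0.48, 0.535 and 0.673. Nr4a2 changed sign, to 0.08, without VEH-T3 mouse 1, whose 23.4 FPKM was the highest of its condition. Egr2, Egr3 and Egr4 each differed by 0.03, and each of these turned negative when the 2 libraries of highest choroid plexus signal were left out, at -0.09, -0.04 and -0.07. Jun, Junb and Jund, the partners of Fos in AP-1, differed by -0.01, -0.04 and -0.01.

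The other conditions give the scale of these levels. Median Fos was lowest in VEH-HC at 4.58 FPKM, followed by Y397F-T10 at 6.18, VEH-T3 at 6.83, VEH-T10 at 7.08 and Y397D-T3 at 7.26. Every neighbouring pair in that order overlapped, and Fos was above VEH-HC by 0.32 in Y397F-T10 and by 0.39 in VEH-T3 (limma, adjusted p = 0.23 and 0.0962). Fosb, a longer-lived partner of AP-1, had medians of 1.73 FPKM in VEH-HC, 2.25 in VEH-T3 and 2.69 in Y397F-T10, and was above VEH-HC by 0.44 in Y397F-T10 (adjusted p = 0.047) and by 0.29 in VEH-T3 (adjusted p = 0.114). The direct difference for Fosb, 0.14, had an unadjusted p of 0.204. Nr4a3 was above VEH-HC by 0.33 in Y397F-T10 and by 0.37 in VEH-T3 (adjusted p = 0.0871 and 0.0282).

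Of 28 activity-regulated effector genes, 13 were higher and 15 lower, and Arc alone had an unadjusted p under 0.05. The median of the list was -0.009, and without Y397F-T10 mouse 1 it was 0.015 with 16 higher. Arc, which encodes a capsid-like protein that regulates AMPA receptor traffic, had 28.9, 33.4 and 36.8 FPKM as lowest, median and highest in Y397F-T10 and 29.7, 44.5 and 52.7 in VEH-T3. All 6 Y397F-T10 mice lay below the VEH-T3 median, but 5 of them were inside its range, since VEH-T3 mouse 1 had the lowest value of its condition. The median of Arc was 37.6 FPKM in home-cage mice, close to the 38.5 of VEH-T10, and stood at 54.8 in Y397D-T3, so that Y397F-T10 had the lowest median of the 5 conditions. The difference was -0.34 (SE 0.146, 95% interval -0.64 to -0.05, unadjusted p = 0.0251, adjusted p = 1). Dusp1, a phosphatase that ends MAP kinase signalling, followed at -0.21 (SE 0.104, unadjusted p = 0.056). Homer1, whose short form remodels the postsynaptic scaffold, had a median of 16.2 FPKM in VEH-HC, 24.2 in Y397F-T10 and 22.7 in VEH-T3. It was higher than in VEH-HC by 0.51 in Y397F-T10 (limma, adjusted p = 0.00147) and by 0.45 in VEH-T3 (adjusted p = 0.00393), and the trained conditions differed from each other by 0.06 with an interval of -0.09 to 0.22.

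**Figure D2:**
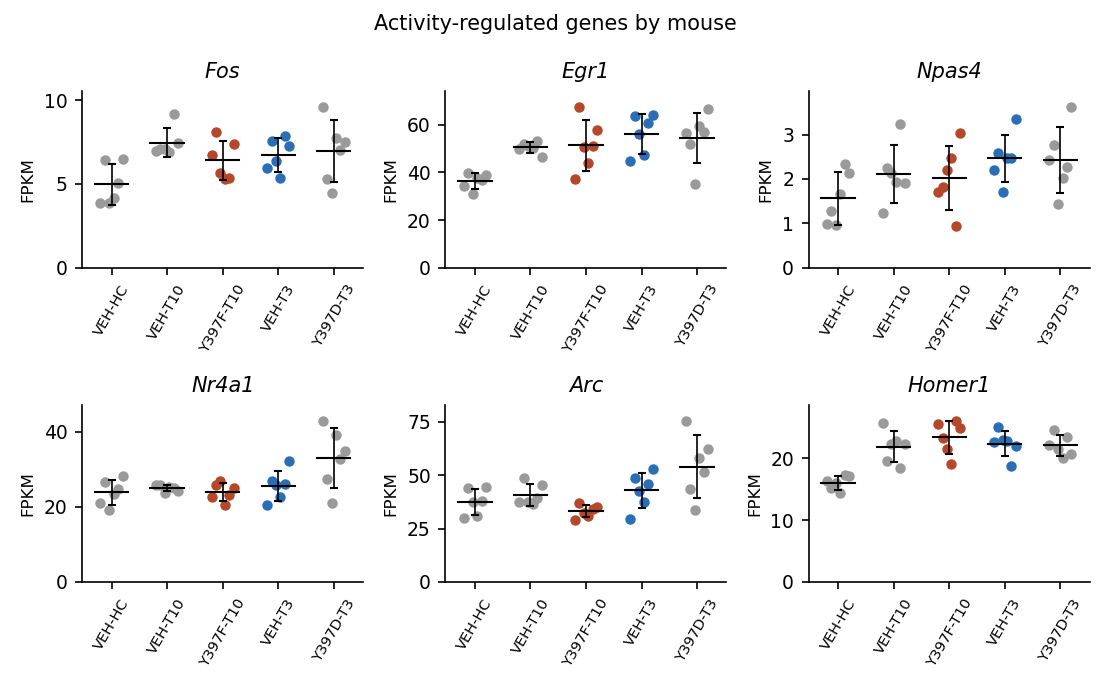
FPKM (vertical axes, linear from 0) of 6 activity-regulated genes in each mouse of the 5 conditions. Points are mice, horizontal lines are means and bars are SD over 6 mice. Homer1 and Egr1 lie lowest in VEH-HC, with medians of 16.2 and 37.1 FPKM, and Arc lies lower in Y397F-T10 than in VEH-T3, with medians of 33.4 and 44.5 FPKM and overlapping mice.

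The genes on which the study's own account turns were read the same way. Its 22 symbols occupied 26 tested rows, of which 13 were higher and 13 lower, with a median of 0.001 and none at an unadjusted p under 0.05. Without VEH-T3 mouse 1 the median was -0.009, with 11 of the 26 rows higher. The list was chosen on these samples, so it is not independent evidence. Per2, a core clock gene, had a median of 4.65 FPKM in VEH-HC, 6.21 in Y397F-T10 and 6.32 in VEH-T3. It was higher in these trained mice than in VEH-HC, by 0.35 and 0.36 (limma, adjusted p = 0.03 and 0.0105). The difference between the trained conditions was -0.01, with an interval of -0.16 to 0.15. Camk1d, a calcium-dependent kinase, had medians of 31.0, 37.2 and 37.1 FPKM in the same order and was higher than in VEH-HC by 0.22 and 0.21 (adjusted p = 0.0429 and 0.0259).

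Other genes of this set passed the test against VEH-HC in one of the conditions. Egr1 was higher by 0.61 in VEH-T3 (adjusted p = 0.0104) and by 0.47 in Y397F-T10 (adjusted p = 0.0573). Dusp6, a phosphatase of ERK, was higher by 0.35 in VEH-T3 (adjusted p = 0.0368) and by 0.28 in Y397F-T10 (adjusted p = 0.147). Sirt4, a mitochondrial sirtuin, was higher by 0.33 in Y397F-T10 (adjusted p = 0.0466) and by 0.28 in VEH-T3 (adjusted p = 0.0511). The direct differences between the trained conditions, -0.14 for Egr1, -0.07 for Dusp6 and 0.06 for Sirt4, had unadjusted p of 0.285, 0.464 and 0.51, so a difference between Y397F-T10 and VEH-T3 was not shown for any of them. Tesc and Homer3, a calcium-binding protein and a scaffold protein, had the smallest unadjusted p of the list, 0.123 and 0.128, at 0.14 and 0.15. Tesc had 40.9, 52.3 and 58.8 FPKM as lowest, median and highest in Y397F-T10 against 41.8, 46.5 and 51.1 in VEH-T3. Cabp7, Hpca and Smoc2, which encode calcium-binding proteins, differed by -0.03, -0.01 and 0.01, and Grin2b, an NMDA receptor subunit, by -0.07 with an interval of -0.47 to 0.33. The histone rows Hist1h4j, Hist2h4 and Hist2h2aa2 differed by 0.40, 0.31 and -0.51, with intervals that reached from -0.59 to 1.40, from -0.24 to 0.86 and from -1.76 to 0.74, and histone gene copies share reads, so these values are uncertain.

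Atxn7l1 occupied 2 rows whose values exchanged between mice. The first row had 1.87 and 1.99 FPKM in 2 of the Y397F-T10 mice and 7.58 to 9.38 in the other 4, and the second row had 8.63 and 9.95 in those 2 mice and 1.51 to 2.83 in the others. The sum of both rows ran from 9.09 to 11.9 FPKM with a median of 11.3 in Y397F-T10 and from 11.5 to 13.2 with a median of 12.2 in VEH-T3. A difference in a single row of this gene therefore depended on how fragments were divided between its rows. The 4 rows of 4933409K07Rik, another symbol of the list, alternated between 0 and 7.4 to 10.5 FPKM in the same manner, and their sum had medians of 18.0 and 18.4 FPKM.

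The genes that separated all mice were few. In 3 genes all 6 Y397F-T10 mice lay above all 6 VEH-T3 mice (0.0228% of tested rows), and in 12 all lay below (0.091%). In a row without a difference, full separation of 6 against 6 mice in either direction has a probability of 0.00216. The shares found were smaller, so the 15 genes are no more than chance would give. None of the 15 had an adjusted p under 0.05. The lower ones began with Wdfy1, an endosomal protein that binds phosphoinositides, at chr1:79702262-79776143 in the GENCODE annotation of GRCm38, with 2.61, 2.82 and 3.42 FPKM as lowest, median and highest in Y397F-T10 and 3.78, 4.17 and 4.87 in VEH-T3, at -0.43 (SE 0.106, unadjusted p = 0.00041). The uncharacterised 2610316D01Rik had 0.635, 1.12 and 1.38 against 1.4, 1.69 and 2.28 FPKM, at -0.41 (SE 0.109), and this value was -0.68 with a pseudocount of 0.1. Kin, a nuclear protein that binds nucleic acids, had 4.5, 4.9 and 5.31 against 5.52, 5.87 and 6.95 FPKM, at -0.24, with an unadjusted p of 0.000288, the smallest of all tested rows. Kin lies at chr2:10080593-10092806 on the + strand.

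The remaining 9 lower genes differed by -0.24 to -0.11. Fnbp1, which bends membranes during endocytosis, had 22.1 to 23.8 FPKM in Y397F-T10 and 24.7 to 32.0 in VEH-T3. Epc1, a subunit of the TIP60 histone acetyltransferase complex, had 7.42 to 9.12 against 9.12 to 10.2 FPKM, values that touch at the printed precision. Agap1, a regulator of Arf GTPases, and Pdlim1, an actin-associated adaptor, both differed by -0.18. Ccdc9, the dynein subunit Dync1li2, the zinc-finger genes Zfp664 and Zfp729a, and Xpo6, an exporter of nuclear actin, differed by -0.14, -0.13, -0.12, -0.11 and -0.11. The 3 higher genes were Higd1b, of the mitochondrial HIG1 family, at 0.29, the porphyrin transporter Abcb6 at 0.18, and Tut1, a uridylyltransferase of U6 RNA, at 0.11. Higd1b had 2.51 to 3.66 FPKM in Y397F-T10 and 1.27 to 2.46 in VEH-T3, where VEH-T3 mouse 1 was far below the others, and its difference fell to 0.14 when mouse 1 of both conditions was left out of the fit.

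**Figure D3:**
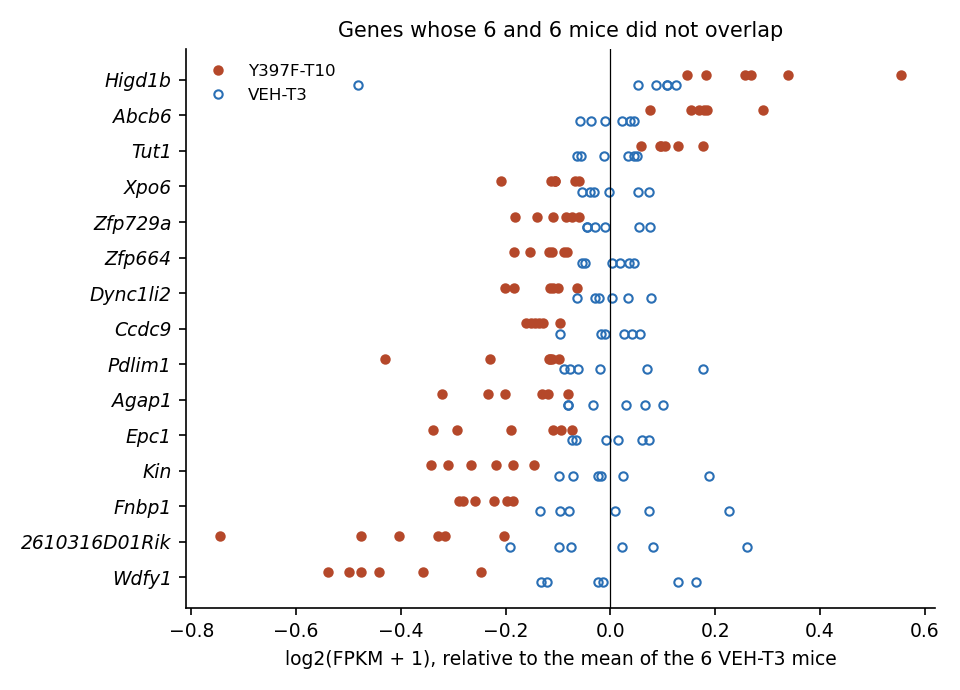
The 15 genes whose 6 Y397F-T10 mice (filled) and 6 VEH-T3 mice (open) did not overlap, as log2(FPKM + 1) of each mouse relative to the mean of the VEH-T3 mice (horizontal axis). The mean differences run from 0.29 for Higd1b to -0.43 for Wdfy1, and for Dync1li2, Ccdc9, Agap1 and Epc1 the nearest mice of the conditions almost touch.

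The same genes were read in VEH-T10 and Y397D-T3, which share no library with this comparison. In VEH-T10 minus Y397D-T3, again 10 min against 3 min of training but with the plasmid on the other side, 13 of the 15 genes had the same sign as here, 11 of the 12 lower and 2 of the 3 higher, where 58.2% of all tested rows had the same sign. For 3 lower genes that sign came with an unadjusted p of limma under 0.05. Ccdc9 differed by -0.21 with an unadjusted p of 7.9e-06. Dync1li2 differed by -0.12 and Agap1 by -0.13, with unadjusted p of 0.0022 and 0.0147. Higd1b and Pdlim1 had opposite signs there, -0.31 and 0.19.

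Arc and Dot1l, which were not among the 15, were also lower in VEH-T10 than in Y397D-T3, by -0.36 (unadjusted p = 0.0197) and -0.21 (unadjusted p = 0.0148). These are examples and not a count of shared signs. Ano4, at -0.26 here (limma, unadjusted p = 0.00157), was at -0.02 in that pair (unadjusted p = 0.781). Across the 13184 rows the differences of the 2 disjoint pairs had a Pearson r of 0.316 and a Spearman rho of 0.248. Genes are not independent replicates, and the pairs share the annotation and the base composition of each gene. After trends with transcript length and GC content were removed, r was 0.308. The source of this correlation, tissue composition included, was not tested. A test of whether the differences of these 2 pairs were unequal called 0 rows with limma, with 317 rows (2.4%) at an unadjusted p under 0.05. That test carries the spread of both pairs and is less sensitive than either, so 0 calls do not show that the pairs are alike.

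Values in the pairs that share a condition with this one are given side by side. Ccdc9, Dync1li2, Agap1, Kin, Wdfy1 and 2610316D01Rik were picked because all their VEH-T3 values lay above those of Y397F-T10. Lower values against VEH-T3 are therefore partly built in, and the source of the differences was not tested. For Ccdc9, Dync1li2, Agap1 and Kin the difference between VEH-T10 and VEH-T3 was -0.15, -0.15, -0.23 and -0.27, and that between Y397F-T10 and VEH-T10 was 0.02, 0.02, 0.05 and 0.02. For Arc these differences were -0.06 and -0.29, for Wdfy1 -0.31 and -0.11, and for 2610316D01Rik -0.26 and -0.15. Crebbp was lower in VEH-T10 than in VEH-T3 by -0.31 (limma, unadjusted p = 0.000352) and higher in Y397F-T10 than in VEH-T10 by 0.21 (unadjusted p = 0.0105). Neither difference passed the adjusted threshold, and the smallest adjusted p of any row in the second pair was 0.996. Both use the same VEH-T10 libraries, so they are not independent of each other.

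Synaptic genes lay close to 0 as groups. Of 17 tested subunits of ionotropic glutamate receptors 8 were higher, of 12 subunits of GABA-A receptors 9 were higher, and of 25 rows of the vesicle release machinery 15 were higher, with medians of -0.007, 0.04 and 0.027 and no member at an unadjusted p under 0.05. Without VEH-T3 mouse 5 the GABA-A median was -0.009. The vesicle release count turned with single libraries, to 6 of 25 higher (median -0.034) without Y397F-T10 mouse 1, 11 of 25 (-0.006) without VEH-T3 mouse 4 and 21 of 25 (0.09) without VEH-T3 mouse 1. The glutamate receptor median was 0.025 without VEH-T3 mouse 1 and -0.051 without Y397F-T10 mouse 1. Among 20 postsynaptic scaffold genes 11 were higher, with a median of 0.009. Homer2, a partner of metabotropic glutamate receptors, was the exception with 6.39, 6.93 and 9.31 FPKM as lowest, median and highest in Y397F-T10 against 7.89, 8.88 and 9.52 in VEH-T3, at -0.21 (SE 0.0745, unadjusted p = 0.00816).

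Clock and glucocorticoid-responsive genes gave few members at an unadjusted p under 0.05, and heat shock and chaperone genes gave none. Of 21 clock genes 6 were higher and 15 lower, and Cry1, a repressor of the clock, was at -0.21 (SE 0.0838, unadjusted p = 0.0208), with medians of 4.46 FPKM in Y397F-T10 and 4.99 in VEH-T3. Of 19 glucocorticoid-responsive genes 12 were higher, with a median of 0.019 that was 0.106 without Y397F-T10 mouse 1. Fkbp5, a cochaperone that dampens the glucocorticoid receptor, had 16.3, 18.2 and 20.4 FPKM as lowest, median and highest in Y397F-T10 and 15.1, 16.1 and 17.4 in VEH-T3, at 0.16 (SE 0.0546, unadjusted p = 0.00773). Sult1a1, a sulfotransferase, was at 0.29 (SE 0.12, unadjusted p = 0.0235). Of 25 heat shock and chaperone genes 17 were higher, with a median of 0.027, and Cryab, a small heat shock protein of oligodendrocytes and astrocytes, was at -0.32 (unadjusted p = 0.0767).

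Genes for ribosomes and for the respiratory chain were mostly a little lower in Y397F-T10. Of 82 tested cytosolic ribosomal protein genes 77 were lower, with a median of -0.105, 5 at an unadjusted p under 0.05 and 0 called. Rps13, a protein of the small ribosomal subunit, had 216, 248 and 277 FPKM as lowest, median and highest in Y397F-T10 against 224, 299 and 356 in VEH-T3, at -0.23 (unadjusted p = 0.0232). The summed FPKM of the list ran from 24239 to 30640 in Y397F-T10 and from 24857 to 35764 in VEH-T3, and the lowest of each condition was mouse 1. After removal of the length and GC trends 64 of the 82 were lower with a median of -0.056, and without VEH-T3 mouse 5 the count was 61 and the median -0.058. Without Y397F-T10 mouse 1 it was 60 with a median of -0.053, without VEH-T3 mouse 1 it was 79 with a median of -0.162, and without both it was 76 with a median of -0.117.

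Of 80 nuclear genes of oxidative phosphorylation 62 were lower, with a median of -0.062, 10 at an unadjusted p under 0.05 and 0 called. Uqcrb, a subunit of complex III, had 135, 152 and 180 FPKM as lowest, median and highest against 152, 187 and 225, at -0.25 (SE 0.0735, unadjusted p = 0.00199), and Ndufa6, of complex I, was at -0.19 (unadjusted p = 0.0057). Without VEH-T3 mouse 4, which had the highest sum of the list at 23160 FPKM, 42 of the 80 were lower and the median was -0.006. Ribosomal and respiratory genes have many processed pseudogenes, so reads may be shared between copies.

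**Figure D4:**
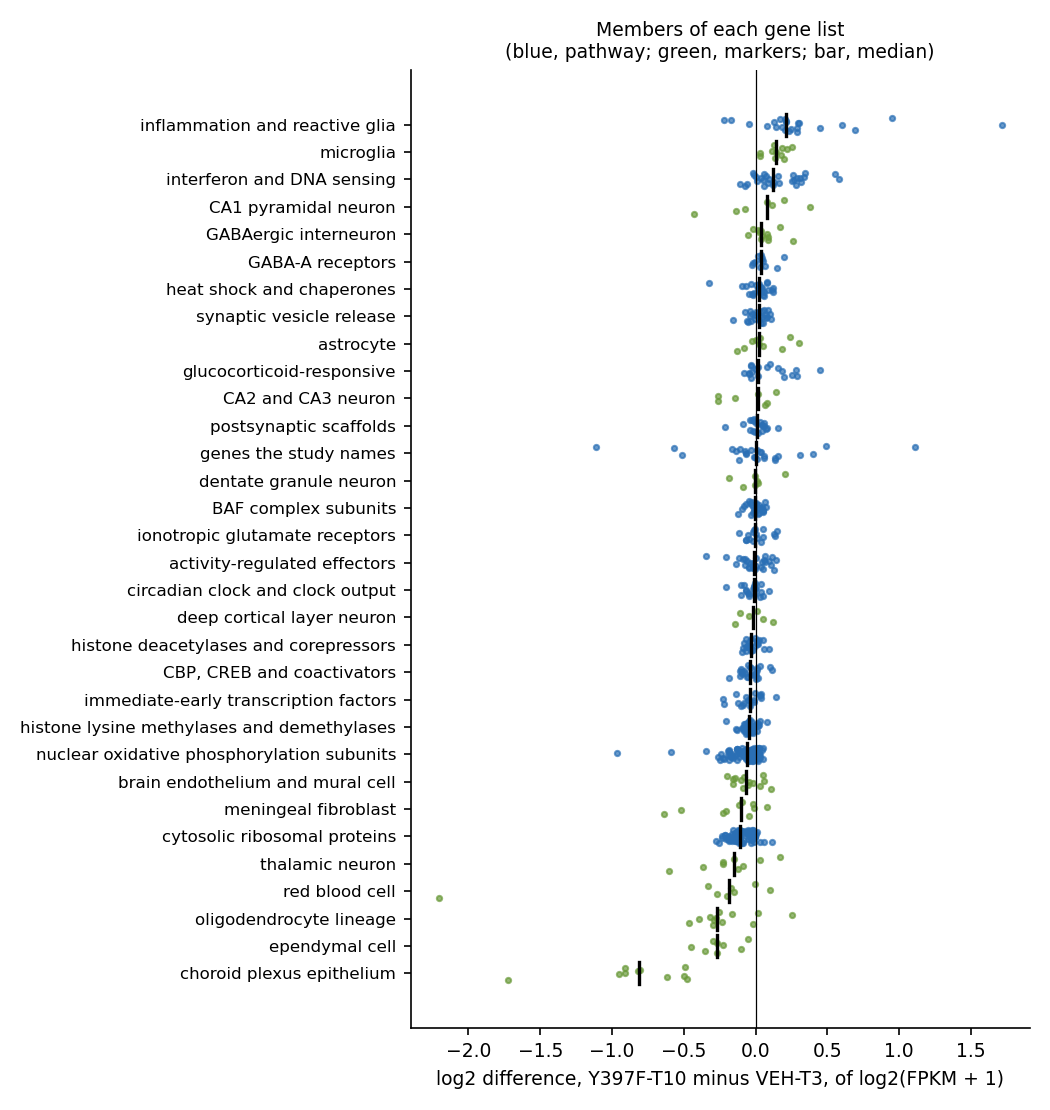
Differences between Y397F-T10 and VEH-T3 (horizontal axis, log2(FPKM + 1)) of each tested member of 18 pathway lists (blue) and 14 marker lists (green), ordered by their medians (black bars). Medians run from 0.215 for inflammation to -0.81 for choroid plexus, most lists straddle 0, and 0 members of any list had an adjusted p under 0.05.

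The cell type markers showed what tissue each library held. CA1 pyramidal markers were present in all 12 libraries, with summed FPKM of 211 to 301 in Y397F-T10 and 225 to 305 in VEH-T3. Of the 7 markers 4 were higher and 3 lower, with a median of 0.079. Nov and Fibcd1 were highest at 0.38 and 0.20, and Wfs1 was lowest. Wfs1, which marks dorsal CA1, had 18.4, 47.7 and 72.6 FPKM as lowest, median and highest in Y397F-T10 and 52.5, 56.6 and 68.2 in VEH-T3, at -0.43 (SE 0.203, unadjusted p = 0.0427), with 5 mice below the range of VEH-T3 and 1 above it. Its lowest value was that of Y397F-T10 mouse 1. In bulk tissue, fewer cells of a type and less RNA per cell cannot be told apart.

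Choroid plexus, the secretory epithelium that lines the ventricle beside the hippocampus, varied most. All 10 of its markers were lower in Y397F-T10, with a median of -0.81 and none at an unadjusted p under 0.05. Their summed FPKM exceeded 1000 in 2 Y397F-T10 mice, at 7376 and 12078, and was 63.1 to 110 in the other 4. In VEH-T3 it exceeded 1000 in 4 mice, at 2059 to 14458, and was 64.8 and 123 in the other 2, and all 6 VEH-HC mice had 1079 to 6410. Kcne2 was listed at 0 in a VEH-T3 library. All 8 ependymal markers were also lower, with a median of -0.268. That median was -0.616 without VEH-T3 mouse 1, -0.064 and -0.066 without VEH-T3 mouse 5 and mouse 4, and -0.101 without Y397F-T10 mouse 1. The choroid plexus median was -0.234 without VEH-T3 mouse 4, -0.431 without Y397F-T10 mouse 1 and -1.375 without VEH-T3 mouse 1, and without the 2 libraries of highest sum, 1 from each condition, it was -0.975, with 0 called rows in that fit.

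Most myelin genes were lower, by an amount that depended on single mice. Of 12 markers of the oligodendrocyte lineage 10 were lower, with a median of -0.267, and Opalin, a membrane protein of myelinating cells, had 21.6, 35.1 and 38.1 FPKM as lowest, median and highest in Y397F-T10 against 23.4, 47.5 and 79.3 in VEH-T3, at -0.47 (SE 0.214, unadjusted p = 0.0386). Mbp, a main protein of compact myelin, had medians of 1077 and 1411 FPKM, at -0.40 (unadjusted p = 0.0905). The summed FPKM ran from 1326 to 2534 in Y397F-T10 and from 1470 to 4308 in VEH-T3, the lowest of each condition being mouse 1. Without VEH-T3 mouse 5, which held the highest sum, the median was -0.131, without Y397F-T10 mouse 1 it was -0.128, without VEH-T3 mouse 1 it was -0.436, and without both it was -0.294. Pdgfra and Cspg4, which mark precursors, differed by -0.02 and 0.02.

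Microglial, inflammatory and interferon genes were mostly higher, and the direction turned without VEH-T3 mouse 1 but not without mouse 1 of both conditions. All 11 microglial markers were higher, with a median of 0.139, 20 of 23 genes of inflammation and reactive glia were higher with a median of 0.215, and 24 of 29 genes of interferon and DNA sensing were higher with a median of 0.124. None of the 63 rows had an unadjusted p under 0.05. Without VEH-T3 mouse 1, 2 of 11, 9 of 23 and 3 of 29 were higher, and the medians were -0.034, -0.018 and -0.143. Without Y397F-T10 mouse 1 the medians were 0.303, 0.49 and 0.327. Without mouse 1 of both conditions 11 of 11, 20 of 23 and 20 of 29 were higher, with medians of 0.133, 0.215 and 0.076. The interferon median ran from -0.17 to 0.40 over the alternatives and was also negative without Y397F-T10 mouse 4 or mouse 6. Without the 2 libraries of highest choroid plexus sum it was -0.022, with 14 of 29 higher. The inflammation median was also negative, at -0.052, without replicate number 6 of every condition. Lcn2, an acute-phase protein of reactive astrocytes, ran from 0.404 to 157 FPKM in Y397F-T10 and from 0.155 to 67.1 in VEH-T3, at 1.71 with an interval of -0.71 to 4.14. The part of tissue composition and of inflammation in the differences between the conditions was not tested.

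**Figure D5:**
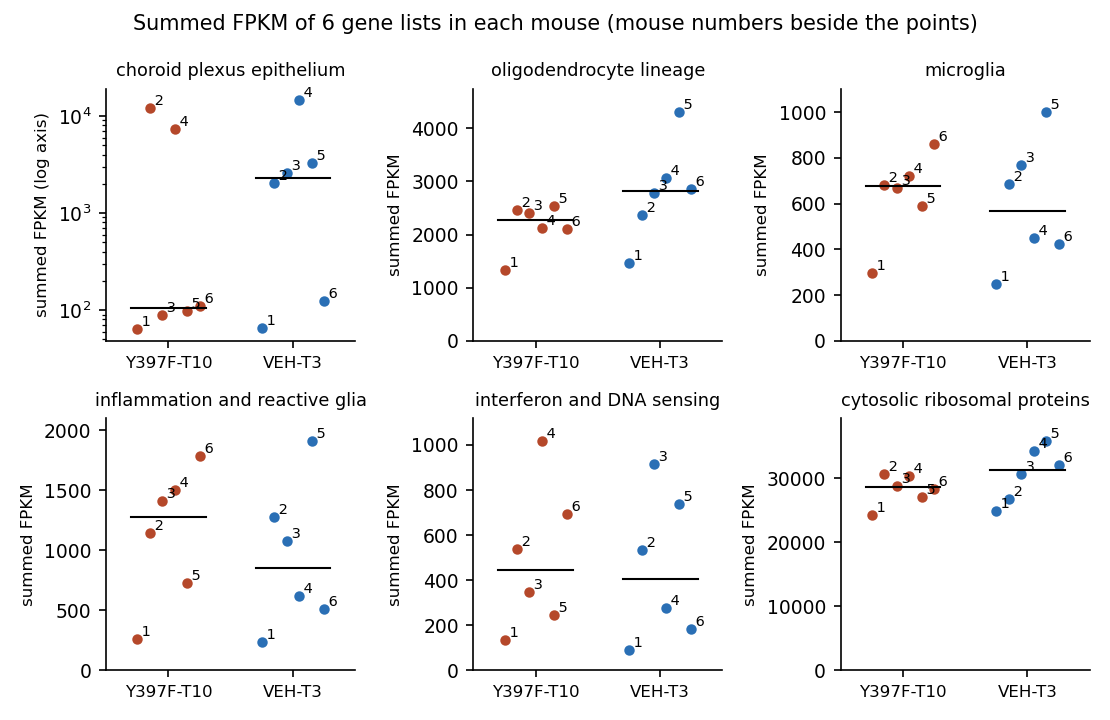
Summed FPKM of 6 gene lists in each mouse of Y397F-T10 and VEH-T3 (vertical axes, linear from 0 except the choroid plexus panel, which has a log axis), with mouse numbers beside the points and medians as lines. Mouse 1 is the lowest of each condition in all 6 panels, the choroid plexus sums span 63.1 to 14458, and the myelin and ribosomal sums reach higher in VEH-T3 than in Y397F-T10.

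Markers of neighbouring regions and other cell types gave mostly small medians. Those of dentate granule neurons had a median of -0.003, with summed FPKM of 68.9 to 193 in Y397F-T10 and 83.6 to 183 in VEH-T3, and those of CA2 and CA3 neurons had a median of 0.017. Without Y397F-T10 mouse 1 all 7 dentate markers were higher with a median of 0.134, and without VEH-T3 mouse 1 the dentate and CA2 and CA3 medians were -0.101 and -0.096. Of 9 thalamic markers 7 were lower with a median of -0.15, and the highest sum, 100 FPKM, was that of VEH-T3 mouse 5, beside 39.9 to 61.5 in Y397F-T10. Deep cortical markers had a median of -0.019, which was 0.11 without VEH-T3 mouse 1, and interneuron markers had 0.041, which was -0.015 without Y397F-T10 mouse 1. Astrocyte, endothelial and mural, and meningeal markers had medians of 0.026, -0.064 and -0.104, without a member at an unadjusted p under 0.05. The same medians were -0.001, -0.118 and -0.295 without VEH-T3 mouse 1, and 0.095, -0.029 and -0.021 without Y397F-T10 mouse 1. Of 8 rows of red blood cell genes 7 were lower with a median of -0.184, but without Y397F-T10 mouse 1, 7 were higher with a median of 0.106, and without mouse 1 of both conditions 6 were higher with a median of 0.064. In the fit with all mice Hbb-bs was at -2.21 (unadjusted p = 0.0131). Its reads may be shared with the near-identical Hbb-b1 and Hbb-b2, which differed by -0.27 and -0.20, so that value is uncertain.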

How the data were processed

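The authors aligned paired reads of 30 dCA1 libraries, 1 per mouse and 6 per condition, to mm10 with TopHat2 2.1.1 and deposited FPKM from Cufflinks 2.2.1, which were used as given. All 30 columns carry labels, and 0 were left out. The table gives no read counts, and the study used 2 sequencing platforms without a stated assignment of libraries, so a platform batch could not be modelled. Rows with a mean of at least 1 FPKM were tested as log2(FPKM + 1) with limma 3.58.1 in R 4.3.3, with 1 coefficient per condition over all 30 libraries, a trended prior and Benjamini-Hochberg adjustment at 0.05. The pseudocount of 1 draws fold changes of low genes toward 0. Ss18l1 was tested by exact permutation (scipy 1.17.1). The script was tested on simulated data. Members, comparison and gene lists were chosen with earlier results of these data known. Text names up to 10 genes per direction past the threshold or, failing those, with the largest differences among genes whose mice did not overlap, CREST, CBP and genes the study names, and for each list its called members or otherwise the 2 with the smallest p, of which 1 is not reported here. Xpo6, Zfp729a, Ano4, Mbp, Pdgfra, Cspg4, Hbb-b1, Hbb-b2 and further members of the lists were named after their values were seen. GENCODE vM21 gave lengths and GC content for 13093 tested rows (99.3%). Alternatives were a pseudocount of 0.1, other filters, median centring, the 12 libraries alone, summed rows, a replicate block, removal of length and GC trends, a Cyber-T-style test (window 101, prior weight 10) and omission of each library. Omission of mouse 1, omission of the libraries of highest choroid plexus sum, the ranking of pairs and principal components as covariates were added after seeing the data. The labels do not say whether the replicate numbers pair the mice.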

Additional observations from a re-analysis of the deposited data

Results flagged for a closer look

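In groups of 6 mice, a value was marked when its gap to the nearest other mouse took up most of the range of its group, beyond the 95% critical value of Dixon's test. Chance marks about 1 in 20 groups, and 15 of 136 groups of single genes and list sums were marked. Values are FPKM or, for lists, summed FPKM.

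Mouse 1 of Y397F-T10 was marked for Egr3 at 28.3, Fosl2 at 11.1, Nr4a2 at 16.3 and Nr4a3 at 22.7, where the other mice had 33.3 to 34.9, 5.86 to 6.52, 10.1 to 11.8 and 17.5 to 18.2. It was also marked for the CBP and CREB list at 401, synaptic vesicle release at 4961 and the oligodendrocyte lineage at 1326, where the others had 419 to 425, 3709 to 4169 and 2101 to 2534. Mouse 2 of Y397F-T10 was marked for Ier2 at 6.4, beside 3.99 to 4.61 in the others.

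Mouse 1 of VEH-T3 was marked for Higd1b at 1.27, Nr4a2 at 23.4 and the deep cortical list at 57, where the others had 2.29 to 2.46, 8.25 to 13.2 and 25.3 to 34.4. Mouse 5 of VEH-T3 was marked for the glucocorticoid-responsive list at 2076 and the thalamic list at 100, where the others had 1085 to 1441 and 43.6 to 53.7. Mouse 4 of VEH-T3 was marked for choroid plexus at 14458, beside 64.8 to 3263, and mouse 6 for the BAF list at 661, beside 620 to 633. The higher Higd1b in Y397F-T10 leaned on its marked mouse, and its groups were 2.51 to 3.66 and 2.29 to 2.46 without it.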

How the results depend on the processing

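The number of called rows was 0 under every alternative of limma except 1. With the first 3 principal components of the deviations from condition means as covariates, 3 rows were called higher and 0 lower (smallest adjusted p = 0.00507). The Cyber-T-style test, with Tukey p not adjusted across genes, gave 38 rows, 4 higher and 34 lower, and ranked the pair 2 of 10. Rows at an unadjusted p under 0.05 numbered 360 in the main analysis, 230 with the 12 libraries alone, 642, 857 and 923 with 1, 2 and 3 components as covariates, and 253 to 815 when a library or a replicate number was left out. They numbered 548 without replicate number 1 and 554 without number 2. The rank of the pair by fewest such rows was 1 of 10, 2 after removal of length and GC trends, and 1 to 2 when libraries were left out. Ss18l1 kept p above 0.05 throughout, with differences of -0.065 to 0.0 without single mice. With the replicate number as a block, 0 rows were called, 414 had an unadjusted p under 0.05, and Ss18l1 gave -0.035 (p = 0.5, exact sign-flip test); deviations of same-numbered mice correlated at -0.323 to 0.84, and 2 of 6 Y397F-T10 mice correlated best with their own number. Among single-gene values under alternatives, 1022 moved by less than the SD among mice and 1 by more, 2610316D01Rik at -0.68 with a pseudocount of 0.1. For lists, 992 medians moved by less than the SD of the list's mean among mice, some of them across 0. Most alternatives either left out mice, which cannot move a single-gene difference by that SD, or changed only the test. These counts were thus largely fixed in advance and do not measure robustness. Rows with a mean below 1 FPKM were left untested, and how small a difference could be resolved depended on the spread of each gene.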

Other observations

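The following genes are examples from the 34 rows that the Cyber-T-style test placed lower in Y397F-T10. They were picked after their values were seen, no enrichment was tested, and none was called by limma. Opalin was the one member of the oligodendrocyte list among these rows. Aspa, which breaks down N-acetylaspartate in oligodendrocytes, was at -0.48, Ninj2 at -0.67, Gjc3, a gap junction protein of oligodendrocytes, at -0.32, Cntn2, an adhesion molecule of the juxtaparanode, at -0.30 and Opalin at -0.47. The small nucleolar RNA hosts Snhg1 and Snhg3 were at -0.40 and -0.49. The 4 rows placed higher included 2 histone genes, Hist1h1e at 0.56 and Hist2h3b at 0.44.

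With 3 principal components as covariates, the called rows were Lcn2 at 1.71, Chil1, a chitinase-like protein of reactive astrocytes, at 0.98, and Ncf1, a subunit of the phagocyte NADPH oxidase, at 0.39. The components were computed from the same libraries, so these calls are a description. Without covariates the intervals of Chil1 and Ncf1 were -0.12 to 2.09 and -0.32 to 1.09, and the mice of both conditions overlapped.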
